A study of Mus musculus with 4 samples.

Results

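Secreted growth factors for tissue repair were examined in alveolar macrophages, which live in the air spaces and clear surfactant and inhaled material. The genes were chosen by name, with earlier results of these data known: Igf1, Pdgfa, Pdgfb, Pdgfc, Vegfa, Hbegf, Areg, Ereg and Hgf. Of these 9 genes, 8 had a probe set of their own among the 18782 genes compared, and each of the 8 had exactly 1 such probe set. Areg was not analysed here. Macrophages were taken from adult mice on a C57BL/6 background by digesting the lung and sorting live CD45+, CD11c-high, autofluorescent, Siglec-F+ cells. All mice carried floxed alleles of Pparg, which encodes the lipid-sensing nuclear receptor PPARγ. The WT group was PPARg fl/fl without Cre, and the KO group was CD11cCre/PPARg fl/fl, in which Cre is driven by the CD11c promoter and so is not limited to alveolar macrophages. Each group had 2 arrays, and each array held RNA of cells pooled from 2 mice. The series title asks about the control of alveolar macrophage identity by PPARγ, and the comparison described here is KO against WT.

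The sort itself differed between the groups, since the gate was CD11b-low for WT and CD11b-high for KO, whose cells the labels describe as arrested and immature. Genotype and gate therefore cannot be told apart. The CD11b gene Itgam rose by 5.76 ± 0.14 (SE) on the log2 scale. Pparg read 9.69 and 9.75 in WT and 9.59 and 9.73 in KO. The place of its probes relative to the floxed region is unknown here, and the level therefore checks no label. Of 12 measured alveolar macrophage markers, 0 rose and 4 fell in limma (Siglecf, Krt79, Mrc1 and Mertk; 1 rose and 7 fell at an unadjusted p under 0.05), while Chil3, Plet1, Cd68, Itgax and Adgre1 read between 9.48 and 11.2 on all 4 arrays. Marco, Fabp4 and Car4 differed by -2.62 ± 0.80, -2.07 ± 0.68 and -0.31 ± 0.10 (SE; limma adjusted p = 0.0897, 0.109 and 0.0853). In bulk RNA a change in the number of cells of a type and a change in RNA per cell cannot be told apart.

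These factors act as short-range signals from macrophages to neighbouring epithelium, endothelium and fibroblasts. IGF-1 and HGF support survival and growth of epithelial cells. VEGF-A drives growth and permeability of vessels. PDGF chains attract fibroblasts and smooth muscle cells. HB-EGF, amphiregulin and epiregulin belong to the EGF family, are made as membrane-bound precursors and are released by shedding proteases to bind EGF receptors.

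Promoter sequences are shown for 3 of the genes that were higher in KO (Igf1, Pdgfa and Vegfa) and for the one that was lower (Pdgfc). They come from RefSeq, build GRCm38.p6, and cover the 250 bases before the furthest upstream start listed for each gene. Capitals mark matches, on either strand, to the motifs searched.
Igf1 (chr10:87860861-87861110, plus strand): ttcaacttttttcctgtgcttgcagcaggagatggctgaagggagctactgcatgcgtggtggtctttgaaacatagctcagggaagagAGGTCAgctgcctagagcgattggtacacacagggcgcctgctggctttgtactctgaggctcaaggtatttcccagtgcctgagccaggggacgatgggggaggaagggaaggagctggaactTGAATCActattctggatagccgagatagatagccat
Pdgfa (chr5:138994945-138995194, minus strand): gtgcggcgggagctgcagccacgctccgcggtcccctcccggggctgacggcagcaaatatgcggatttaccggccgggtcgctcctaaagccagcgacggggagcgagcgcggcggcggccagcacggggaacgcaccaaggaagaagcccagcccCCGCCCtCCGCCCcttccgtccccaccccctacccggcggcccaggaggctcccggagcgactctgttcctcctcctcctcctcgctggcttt
Vegfa (chr17:46032378-46032627, minus strand): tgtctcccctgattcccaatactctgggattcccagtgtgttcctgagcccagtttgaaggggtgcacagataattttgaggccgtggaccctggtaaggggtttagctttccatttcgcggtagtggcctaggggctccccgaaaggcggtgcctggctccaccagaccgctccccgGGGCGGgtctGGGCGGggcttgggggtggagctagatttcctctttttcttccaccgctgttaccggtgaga
Pdgfc (chr3:81036166-81036415, plus strand): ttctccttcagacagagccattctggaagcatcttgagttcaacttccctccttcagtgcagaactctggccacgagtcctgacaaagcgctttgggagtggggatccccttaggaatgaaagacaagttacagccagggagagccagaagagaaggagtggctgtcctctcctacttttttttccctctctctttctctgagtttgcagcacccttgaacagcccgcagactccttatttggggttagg
The motifs were the GC box GGGCGG, the AP-1-like pattern TGANTCA (N is any base), the CRE TGACGTCA and the hypoxia response core ACGTG. Also searched were the EGR site GCGNGGGCG, the nuclear receptor half-site AGGTCA, the PPAR/RXR direct repeat AGGTCANAGGTCA and the TATA box TATAAA. The half-site lies inside the direct repeat. Vegfa and Pdgfa each held 2 GC boxes, in windows with a GC content of 59.2% (Vegfa) and 72.4% (Pdgfa). A GC box was present in 33.0% of the 27025 promoters scanned over the same length. Igf1 held 1 match to the AP-1-like pattern, as TGAATCA, with A as the middle base. That pattern, with any middle base counted, was found in 6.85% of promoters. Igf1 also held 1 nuclear receptor half-site, found in 13.8%. The full direct repeat was in 0.037% of promoters and in none of those 4. Neither Pdgfc nor Hgf held any of the motifs in this window. A match is a description of the letters and not evidence of binding. Of the 9 listed genes, 6 were matched to the promoter table by symbol, and Areg, among them, was not printed because it had no expression value.

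All 8 measured genes differed between the genotypes, 7 of them higher and 1 lower in KO. Over all genes, 14.3% passed the test (limma, Benjamini-Hochberg adjusted p under 0.05, two-sided), 7.41% being higher and 6.86% lower. The median difference of the 8 genes was 2.19 on the log2 scale against -0.015 for all genes. Because the genes were chosen with earlier results of these data known, this contrast is not a test of the set. No KO array overlapped a WT array for any of the 8, which was also true of 55.3% of all genes (25.3% with KO above WT and 30.0% with KO below). Values are log2 expression per probe set after RMA, on which the median of all probe sets on the arrays was 3.14 (for both groups), and differences are KO minus WT, given with the model's standard error (SE). Levels on this scale are compared between arrays and not between genes, because probe sets differ in how brightly they hybridise.

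**Figure D1:**
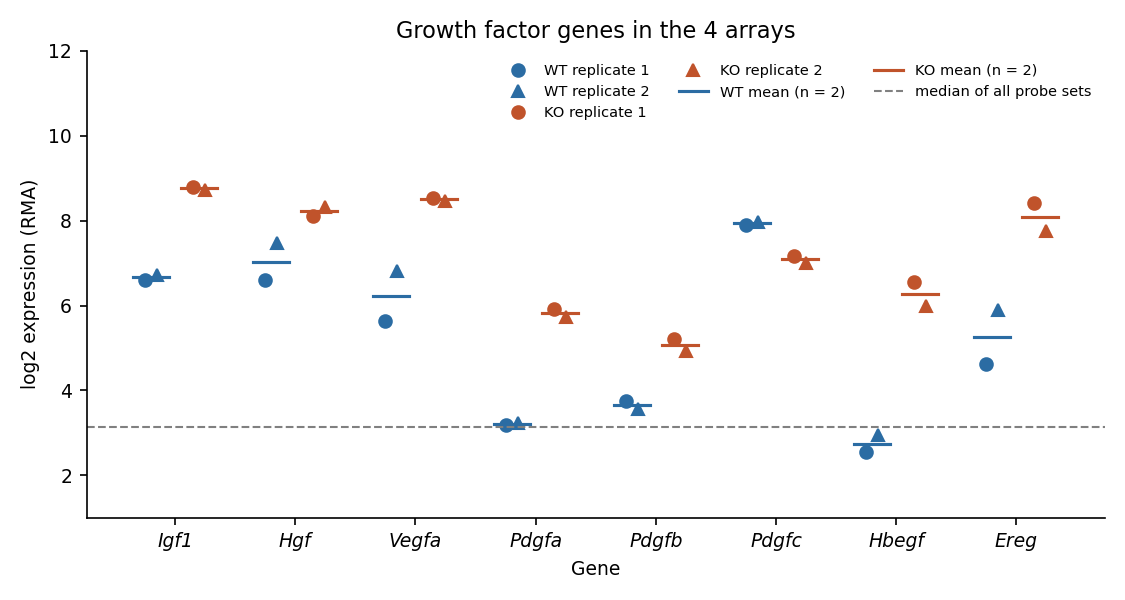
Log2 expression (RMA) of the 8 measured growth factor genes on each array, with circles for replicate 1, triangles for replicate 2, short lines for group means and a dashed line at the median of all probe sets (3.14). Both KO arrays lie above both WT arrays for 7 genes and below them for Pdgfc, and the WT arrays are farthest apart for Ereg, Vegfa and Hgf.

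Igf1, the gene of insulin-like growth factor 1, had the smallest standard error of the 8. It read 6.61 and 6.71 in WT and 8.79 and 8.73 in KO. Both WT arrays lay within 0.10 of each other and both KO arrays within 0.06, with a gap of 2.02 between the groups. The difference was 2.10 ± 0.10 (SE), 4.28-fold, with a 95% confidence interval of 1.86 to 2.34 (limma adjusted p = 1.18e-04).

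Hgf encodes hepatocyte growth factor, which acts on epithelial cells through the receptor MET. It read 6.60 and 7.47 in WT and 8.10 and 8.33 in KO. WT replicate 2 lay nearer to KO replicate 1 than to the other WT array. The difference was 1.18 ± 0.27 (SE), 2.27-fold (limma adjusted p = 0.0361), and its interval of 0.52 to 1.85 was wide. Leaving out KO replicate 1 gave an adjusted p of 0.125, leaving out KO replicate 2 gave 0.186, and adjusting over all probe sets gave 0.0633. Against WT replicate 2 alone the difference was 0.75, and against WT replicate 1 alone it was 1.62.

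Vegfa, which encodes vascular endothelial growth factor A, read 5.63 and 6.82 in WT and 8.54 and 8.46 in KO. The KO arrays nearly coincided while the WT arrays lay 1.19 apart, and the lower KO array still stood 1.64 above the higher WT array. The difference was 2.27 ± 0.35 (SE), 4.83-fold (limma adjusted p = 0.00885). Leaving out KO replicate 1 or KO replicate 2 ended the call (adjusted p = 0.0715 and 0.0636). Against WT replicate 2 alone the difference was 1.68, and against WT replicate 1 alone it was 2.87.

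Among the platelet-derived growth factors, the genes of the A and B chains rose and that of the C chain fell. Pdgfa read 3.18 and 3.23 in WT, next to the array median, and 5.93 and 5.72 in KO. The groups were separated by 2.49, far more than either pair of arrays spread. The difference was 2.62 ± 0.11 (SE), 6.14-fold (limma adjusted p = 8.07e-05). Pdgfb read 3.75 and 3.55 in WT and 5.20 and 4.93 in KO. Its difference was 1.42 ± 0.13 (SE), 2.67-fold (limma adjusted p = 0.00138). Pdgfc, whose product needs proteolytic cleavage to become active, went the other way. It read 7.90 and 7.97 in WT and 7.17 and 7.01 in KO, so the KO arrays were the low ones. It fell by 0.85 ± 0.11 (SE) on the log2 scale, and WT stood 1.80-fold above KO (limma adjusted p = 0.00386).

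Of the EGF family ligands, Hbegf and Ereg rose. Hbegf, which encodes heparin-binding EGF-like growth factor, read 2.56 and 2.94 in WT and 6.56 and 5.99 in KO. The WT values lay below the array median, where the scale is compressed, so the fold change may be understated. At 3.53 ± 0.22 (SE), 11.5-fold (limma adjusted p = 2.98e-04), this was the largest difference of the 8 genes and ranked 55 from the top among all 18782. Ereg, the gene of epiregulin, read 4.62 and 5.91 in WT and 8.42 and 7.75 in KO. Both pairs of arrays were spread, by 1.29 in WT and 0.67 in KO, and the gap between the groups was 1.84. The difference was 2.82 ± 0.42 (SE), 7.08-fold (limma adjusted p = 0.00783). Leaving out KO replicate 1 ended the call (adjusted p = 0.065). Against WT replicate 2 alone the difference was 2.18, and against WT replicate 1 alone it was 3.47.

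**Figure D2:**
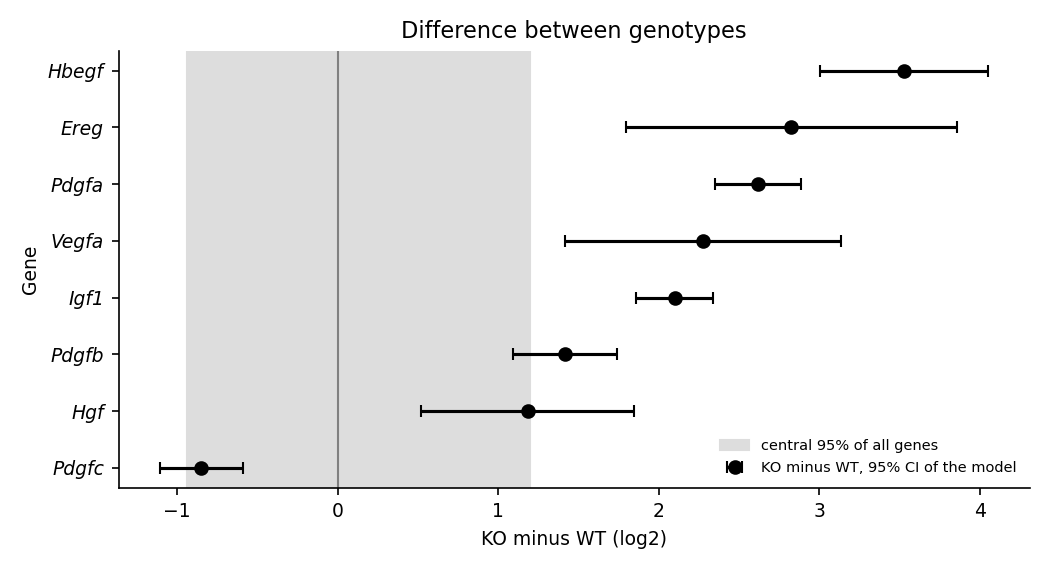
KO minus WT on the log2 scale for the 8 genes, with bars for the 95% confidence interval of the limma model and a grey band for the central 95% of all genes. No interval reaches 0. The points run from -0.85 (Pdgfc) to 3.53 (Hbegf), and Hgf, Vegfa and Ereg have the widest intervals.

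The genes thus differed in how tightly they were measured, with standard errors from 0.10 (Igf1) to 0.42 (Ereg), and Hbegf (0.22) near Hgf (0.27). WT arrays 0.8 or more apart were found for 3 of the 8 genes (Hgf, Vegfa and Ereg) and for 0.974% of all genes, and KO arrays that far apart for 0 of the 8 and for 0.378% of all genes. In all 3 genes WT replicate 2 was the WT array nearer to KO. Among the 85 genes past the test with WT arrays that far apart, these 3 included, WT replicate 2 was the nearer in 78. Genes that were strongly higher in KO differed in this respect: in WT replicates 1 and 2, C1qb read 2.03 and 3.09, Ccn3 1.98 and 3.17, C1qa 3.28 and 3.46, C1qc 2.39 and 2.42 and Itgam 3.10 and 2.87. Their part in the growth factor values was not tested. Without KO replicate 1, 4 of the 7 higher genes passed, and without KO replicate 2, 5 passed, against all 7 with either WT array left out. A fit without an array has a single array in that group and assumes that it varies like the other group. Igf1, Pdgfa, Pdgfb, Hbegf and Pdgfc passed whichever array was left out.

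**Figure D3:**
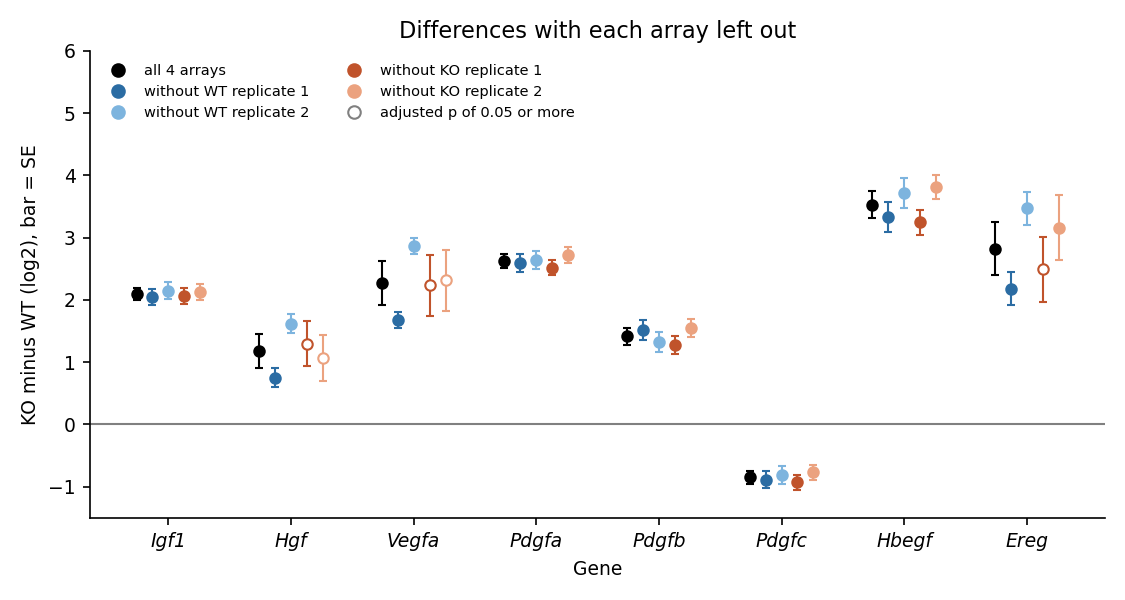
KO minus WT on the log2 scale for the 8 genes with all 4 arrays and with each array left out, with bars for the SE and open points where the adjusted p was 0.05 or more. No difference can change sign here, because no KO array overlapped a WT array. Open points appear for Hgf, Vegfa and Ereg when a KO array is left out.

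Genes with the pattern most like that of each factor were found by the root mean square distance between the 4 array values after each gene's own mean was subtracted. With 4 arrays this measures little beyond the size of the difference and the order of the arrays. The nearest were Abcb1a, Crip1 and Snhg11 for Igf1, Ank, Dhdh and Slc44a1 for Pdgfa, and Fgfr1, Capn5 and Marcksl1 for Pdgfb. For Pdgfc they were Aco1, Arhgap30 and Neurl1b, and for Hbegf Ldhb, Cpeb1 and Mmp2. Vegfa had Alcam, Gdpd1 and Mtus1, Ereg had Pdpn, Src and Plk2, and Hgf had Mkx, Cd86 and Rbm38. Distances of the nearest gene ran from 0.0164 for Pdgfc to 0.181 for Ereg, in log2 units.

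Of 15 measured other ligands of the same families, 2 were higher, 1 was lower and 12 did not pass. This was 20.0% past the test, against 14.3% of all genes. The median difference was -0.04, and 10 of the 15 had means below the array median in both groups. Vegfb, a VEGF of the same family as Vegfa, read 5.81 and 5.88 in WT and 6.53 and 6.41 in KO, a difference of 0.62 ± 0.10 (SE; limma adjusted p = 0.0107). The call ended when WT replicate 1 (adjusted p = 0.0507) or KO replicate 1 (adjusted p = 0.073) was left out, which left 1 higher ligand. The neuregulins, which are ligands of ERBB3 and ERBB4, went both ways. Nrg1 read 2.65 and 2.63 in WT and 3.97 and 3.70 in KO (1.20 ± 0.12, SE; limma adjusted p = 0.0017). Nrg4 read 7.70 and 7.75 in WT and 5.97 and 6.33 in KO (-1.57 ± 0.14, SE; limma adjusted p = 0.00113). The remaining EGF receptor ligands, Egf, Tgfa, Btc and Epgn, did not pass the test.

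Of 20 receptors and co-receptors, 5 were higher (Nrp2, Igf1r, Met, Sdc4 and Igf2r), Insr was lower and 14 did not pass, with a median of -0.02. The share past the test was 30.0%, against 14.3% of all genes, and 9 of the 20 had both group means below the array median. Igf1r, the receptor of IGF-1, read 3.002 and 3.35 in WT and 4.32 and 4.27 in KO, a difference of 1.12 ± 0.14 (SE; limma adjusted p = 0.00349). The gene of the related insulin receptor, Insr, read 7.76 and 7.69 in WT and 6.997 and 7.06 in KO (-0.70 ± 0.10, SE; limma adjusted p = 0.00567). Met, the receptor of HGF, read 1.87 and 1.63 in WT and 3.79 and 2.92 in KO, so that 1 KO array stayed below the array median (1.60 ± 0.27, SE; limma adjusted p = 0.0129). Nrp2, a co-receptor of VEGF, read 7.25 and 7.37 in WT and 8.26 and 8.27 in KO (0.96 ± 0.10, SE; limma adjusted p = 0.00189). Sdc4, which encodes the heparan sulfate proteoglycan syndecan 4, differed by 0.80 ± 0.14 (SE; limma adjusted p = 0.0151), a call that ended when WT replicate 1 (adjusted p = 0.0609) or KO replicate 1 (adjusted p = 0.0858) was left out. Igf2r, the gene of a receptor that clears IGF-2, read 2.56 and 2.32 in WT and 4.85 and 3.74 in KO. Insr was the only lower receptor in the fit on all arrays, against 2 lower without WT replicate 2.

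Receptors of the other factors were dim or did not pass. The VEGF receptor gene Flt1 read 8.83 and 9.18 in WT and 8.56 and 8.66 in KO (-0.39 ± 0.14, SE; limma adjusted p = 0.129), and the co-receptor gene Nrp1 differed by 0.11 ± 0.10 (SE; limma adjusted p = 0.535). The PDGF receptor genes Pdgfra and Pdgfrb, the main endothelial VEGF receptor gene Kdr and the EGF receptor family genes Egfr and Erbb4 read between 1.91 and 2.70 on every array, below the array median of 3.14. Signal that low limits which differences can be seen.

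**Figure D4:**
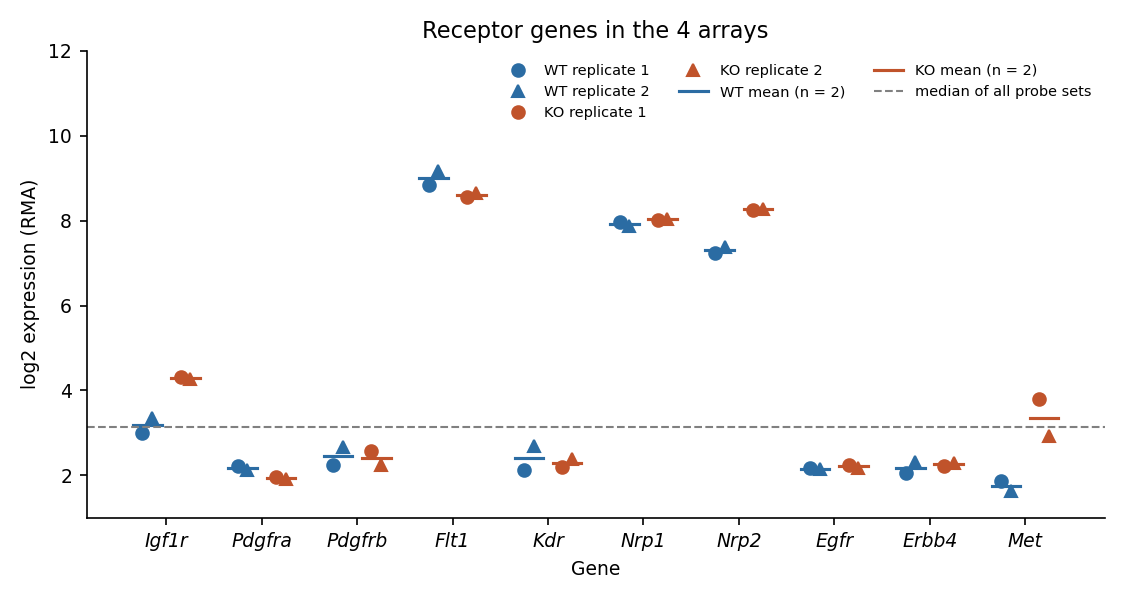
Log2 expression (RMA) of 10 receptor and co-receptor genes on each array, with circles for replicate 1, triangles for replicate 2, short lines for group means and a dashed line at the median of all probe sets (3.14). Igf1r, Nrp2 and Met are higher in KO, and Pdgfra, Pdgfrb, Kdr, Egfr and Erbb4 lie below the dashed line on all 4 arrays.

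Genes that release, activate or bind these factors were higher where they passed. Of 24 measured, 7 were higher, 0 were lower (limma; 1 at an unadjusted p under 0.05, and 1 past the test when dim genes were left out) and 17 did not pass, with a median of 0.09. The share past the test was 29.2%, against 14.3% of all genes, and 11 of the 24 had both group means below the array median. Ccn3, which encodes a matricellular protein with a domain resembling IGF-binding proteins, read 1.98 and 3.17 in WT and 7.61 and 7.68 in KO, a difference of 5.07 ± 0.35 (SE; limma adjusted p = 4.74e-04) that was 4.47 against WT replicate 2 alone and 5.67 against WT replicate 1 alone. The plasminogen activator genes, whose proteases can also cleave PDGF-C or HGF precursors, were both higher. Plau read 5.30 and 4.67 in WT and 7.17 and 6.83 in KO (2.01 ± 0.23, SE; limma adjusted p = 0.00255). Plat read 2.73 and 2.71 in WT and 4.73 and 4.27 in KO (1.78 ± 0.16, SE; limma adjusted p = 0.00115). Igfbp6, the gene of an IGF-binding protein, and St14, that of the membrane protease matriptase, rose by 0.65 ± 0.09 and 0.57 ± 0.11 (SE). Both were dim. Igfbp6 read between 2.19 and 2.89 on the 4 arrays, below the array median. St14 read 2.905 and 2.75 in WT and 3.47 and 3.33 in KO. Spint1, the gene of an inhibitor of HGF activation, and Adam9 were the other higher genes. Igfbp6 lost its call when KO replicate 2 was left out (adjusted p = 0.0518), and St14 when WT replicate 2 or either KO array was (adjusted p from 0.0639 to 0.115). Spint1 lost its call when WT replicate 1 or either KO array was left out (adjusted p from 0.073 to 0.15), and Adam9 with any 1 array left out (0.0661 to 0.145). Leaving out KO replicate 1 left 4 higher genes, and leaving out KO replicate 2 left 3. Adam17, the main sheddase of the EGF family, differed by 0.08 ± 0.10 (SE; limma adjusted p = 0.676).

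Of 26 measured genes that carry or dampen signals of receptor tyrosine kinases, 8 were higher, 2 were lower and 16 did not pass, with a median of 0.09. The share past the test was 38.5%, against 14.3% of all genes, and 5 of the 26 had both group means below the array median. The genes of the feedback inhibitors Socs3 (3.43 ± 0.15, SE), Spred1 (1.39 ± 0.10), Errfi1, which restrains EGF receptors (1.06 ± 0.14), and Socs2 (0.95 ± 0.13) led the higher genes. Their limma adjusted p-values ran from 9.55e-05 to 0.00596. Whether these inhibitors act on receptor tyrosine kinases or on other receptors in these cells was not tested. Dusp6, the gene of a phosphatase that switches off ERK, read 7.94 and 8.22 in WT and 6.76 and 6.86 in KO (-1.27 ± 0.13, SE; limma adjusted p = 0.00166), and Map2k1 was the other lower gene (limma adjusted p = 0.0395). Whichever array was left out, 1 gene was lower and Map2k1 did not pass (adjusted p from 0.0785 to 0.181). Leaving out KO replicate 1 left 3 higher genes, Socs2 being lost at an adjusted p of 0.0531, and leaving out KO replicate 2 left 5.

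Of 26 other secreted growth factors that macrophages can make, 6 were higher, 3 were lower and 17 did not pass, with a median of 0.02. The share past the test was 34.6%, against 14.3% of all genes, and 13 of the 26 had both group means below the array median. Csf1, the gene of the macrophage growth factor M-CSF, read 2.74 and 2.54 in WT and 6.62 and 7.13 in KO (4.23 ± 0.18, SE; limma adjusted p = 8.55e-05). Gas6, a bridge between dying cells and TAM receptors, read 2.41 and 2.62 in WT and 5.00 and 4.66 in KO (2.32 ± 0.15, SE; limma adjusted p = 3.29e-04). Retnla, the gene of the secreted protein RELMα (2.98 ± 0.28, SE), and Lif, a cytokine of the IL-6 family (1.53 ± 0.17, SE), were also higher. Bmp2 and Inhba were the other higher genes. Bmp2 read 1.46 and 1.63 in WT and 2.095 and 1.93 in KO, below the array median on every array. Both lost their call when adjusted over all probe sets (limma adjusted p = 0.0631 and 0.0687). The replicate number as a block also ended both calls (limma adjusted p = 0.0738 and 0.0534). The lower genes were Mdk, which encodes the heparin-binding factor midkine (-0.94 ± 0.11, SE; limma adjusted p = 0.00336), Fgf1 (-0.90 ± 0.17, SE) and Tgfb2 (-1.01 ± 0.22, SE). Mdk lost its call on its probe set with the lowest mean (-0.59; adjusted p = 0.0706). Fgf1 lost its call when WT replicate 1 (adjusted p = 0.0622) or KO replicate 1 (0.102) was left out, and Tgfb2 when KO replicate 1 (0.166) or KO replicate 2 (0.0838) was. Leaving out KO replicate 1 left 4 higher genes and 1 lower gene. Tgfb1, the gene of the main transforming growth factor of macrophages, read between 9.59 and 9.79 on all 4 arrays.

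**Figure D5:**
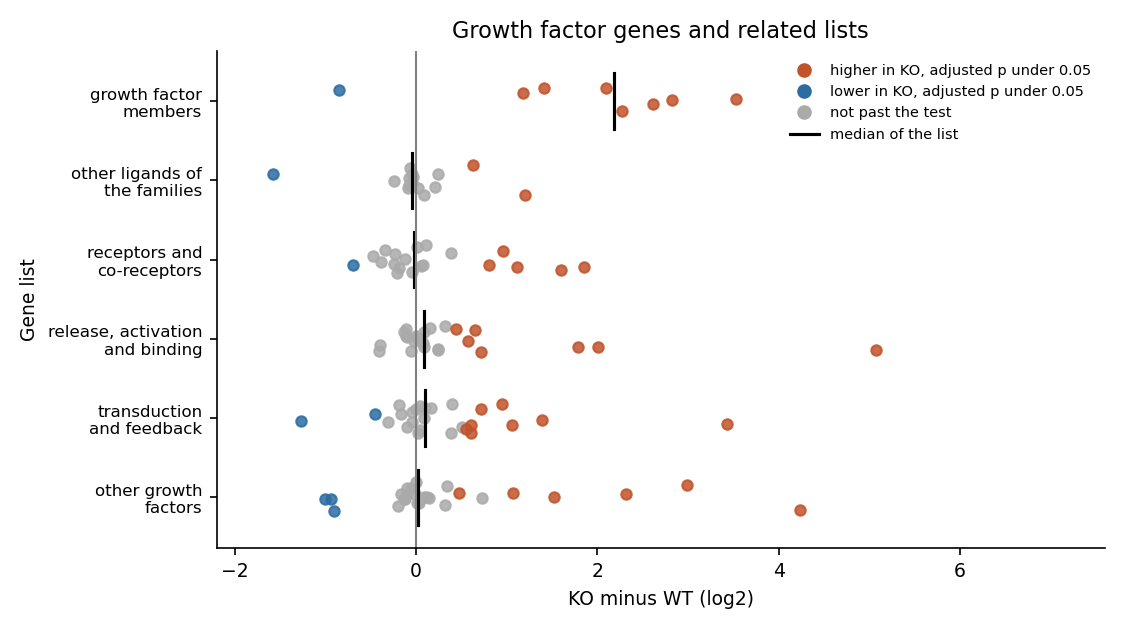
KO minus WT on the log2 scale for the 8 measured growth factor genes and for the 5 related gene lists, 1 point per gene, coloured by the limma call, with a black line at the median of each list. The growth factor genes have a median of 2.19, while the medians of the related lists lie between -0.04 and 0.09. Members and lists were chosen with earlier results of these data known. Both group means lay below the array median for 10 of 15 other ligands, 9 of 20 receptors and 11 of 24 release genes. The same held for 5 of 26 transduction genes and 13 of 26 other growth factors. Signal that low limits which differences can be seen.

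Some markers of other cells moved with the same contrast. The interstitial macrophage list had 5 of 8 markers higher (C1qa, C1qb, C1qc, Cx3cr1 and Lyve1). Its summed linear signal was 56 to 57 in WT and 831 to 1076 in KO. Lyve1 read 2.75 and 2.72 in WT and 3.20 and 3.08 in KO, next to the array median. Cd163, Folr2 and Tmem119 stayed below the array median in both groups. The neutrophil list had 2 of 7 markers higher (S100a8 and Mmp8), with a summed signal of 144 to 266 in WT and 1018 to 1042 in KO, while Camp, Ltf and Ngp stayed below the median. S100a9 read 2.39 and 2.52 in WT and 3.31 and 2.74 in KO (limma adjusted p = 0.112). Of 5 monocyte markers 2 were higher (Ccr2 and F13a1) and 1 lower (Spn). The sums were 1644 to 1774 in WT and 1811 to 1869 in KO. Such sums follow the brightest gene of a list. For monocytes this was Nr4a1, at 10.63 to 10.74 on every array, so the sum hides the Ccr2 difference of 1.82 ± 0.34 (SE). The neutrophil sum follows Mmp8 in the same way, and the endothelial sum below follows Vwf. In KO the interstitial macrophage sum follows C1qb, at 9.28 and 8.81. The part of interstitial macrophages, neutrophils and monocytes in the growth factor differences was not tested. Platelets store PDGF, and of 5 platelet markers Pf4 was higher, Gp5 was lower and Ppbp stayed below the median, as did Gp9 in its group means, with sums of 52 to 66 in WT and 47 to 51 in KO. Mast cell and basophil markers (6 of 6) and eosinophil markers (4 of 4) lay below the median in both groups. Of 8 fibroblast and smooth muscle markers 0 passed (limma; 1 at an unadjusted p under 0.05), with sums of 59 to 61 in WT and 61 to 63 in KO. Among the other lists, Vwf was higher of 7 endothelial markers (sums of 108 to 117 and 188 to 197), 2 of 9 epithelial markers were lower (198 to 317 and 274 to 292) and 0 of 4 B cell markers passed (0 at an unadjusted p under 0.05; 31 to 36 and 32 to 34). Il7r was higher of 7 T cell and innate lymphoid markers (129 to 133 and 228 to 332), with Cd3g, Cd3d and Gata3 below the median, and Cd209a of 6 dendritic cell markers (88 to 101 and 130 to 219).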

How the data were processed

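Total RNA of sorted macrophages was labelled with biotin and hybridised to Affymetrix arrays. The deposited log2 values per probe set came from RMA under R 2.15.2, according to the labels and the submitters' processing notes. Genome build and RMA settings: not given in the sources used here. The 28371 probe sets ran from 0.958 to 12.1, and all arrays shared 1 distribution. Probe sets were named from the platform annotation (21158 with 1 symbol, 1881 with several, 5332 with none), and the highest of several per gene was kept, giving 18782 genes, dim ones included. The genotypes were compared by limma 3.58.1 (R 4.3.3), group as the only term, with empirical Bayes moderation (2 residual and 4.16 prior degrees of freedom), and p-values were adjusted over all genes. The number of arrays limits the precision. The procedure was tested on simulated data. The members and the 5 gene lists were chosen with earlier results of these data known. Named genes were the members, the 5 genes with the smallest p past the test in each list, the receptors of the members and the 3 nearest genes per member. Igf2r, Adam9, Adam17, Spint1, Map2k1, Fgf1, Tgfb1, Tgfb2, Bmp2, Inhba and the family ligands and markers named were chosen after their values were seen. Some genes of the lists were not analysed here, and counts are over the genes measured. Alternatives were another normalization, centring, probe set choice, a filter on dim genes, an intensity trend, a test against a difference of 0.5, each array left out and the replicate number as a block. Background correction could not be varied from RMA values.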

Additional observations from a re-analysis of the deposited data

How the results depend on the processing

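All 8 growth factor genes kept their direction in all 13 alternatives, but most of these could not have changed it. Each gene had 1 probe set and no KO array overlapped a WT array. Only another normalization or centring could therefore have turned a direction. Igf1, Pdgfa, Pdgfb and Hbegf also kept their call in each, with the highest adjusted p at 0.0131 (Pdgfb). Pdgfc lost its call in 1 alternative, a test against a difference of 0.5 (adjusted p = 0.141), Ereg in 1, Vegfa in 2 and Hgf in 4, where its adjusted p reached 0.337. With each array left out in turn, 726 to 1227 genes were higher and 647 to 1057 lower, and among the growth factors 4 to 7 were higher. Over the same fits, other ligands had 1 to 2 higher, receptors 1 to 2 lower, release and binding genes 3 to 5 higher, transduction genes 3 to 8 higher and 1 to 1 lower, and other growth factors 1 to 3 lower. Against a difference of 0.5, 498 genes were higher and 336 lower, with 0 lower growth factors, 1 higher ligand, 2 higher and 0 lower receptors, 3 higher release genes, 2 higher and 1 lower transduction genes and 0 lower other growth factors (limma, a stricter test by construction). With an intensity trend 4 receptors were lower, without dim genes 1 release gene was lower, and adjusted over all probe sets 1 transduction gene was lower. The cause was not tested. Among receptors not past the test, leaving out 1 array turned the sign of Pdgfrb (range -0.26 to 0.17), Kdr (-0.41 to 0.17) and Erbb4 (-0.05 to 0.21). Deviations of same-numbered arrays correlated at -0.0173 across genes, which cannot show whether such arrays were processed together. With the replicate number as a block, 1309 genes were higher and 1168 lower, 7 growth factors were higher and 1 lower, and 1 transduction gene was lower. Signal near the bottom of the scale limits what can be seen for Hbegf in WT and for most receptors.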

Other observations

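The direction in which WT replicate 2 departed from WT replicate 1 went beyond the growth factors. Among genes past the test in limma with WT arrays 0.8 or more apart, WT replicate 2 was the array nearer to the KO mean for 56 of 63 higher genes and 22 of 22 lower genes. Krt79, a keratin gene of alveolar macrophages that was lower in KO, read 10.2 and 8.48 in WT replicates 1 and 2, and Mmp8, which was higher in KO, read 6.40 and 7.78. The chemokine receptor gene Ccr2 read 4.49 and 5.58. C1qb read 2.03 and 3.09. The alveolar macrophage markers Marco and Fabp4 did not pass the test. In WT replicates 1 and 2 Marco read 7.22 and 4.43, against 3.04 and 3.37 in KO. Fabp4 read 7.57 and 5.21 in WT, against 4.19 and 4.45 in KO. Shifts in the same direction were smaller for Siglecf, at 9.59 and 9.44, and C1qa, at 3.28 and 3.46, while Itgam, at 3.10 and 2.87, went the other way. Scgb1a1, a gene of airway secretory cells, read 6.89 in WT replicate 1 and 4.26 in WT replicate 2, against 6.48 and 6.63 in KO. What sets the WT arrays apart was not tested.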
